A study of Mus musculus with 6 samples.

Results

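The genes of glycolysis and gluconeogenesis were examined in fetal liver of mouse embryos that lack tropomodulin 3, which covers the slow-growing end of actin filaments. The set named 35 transporters, enzymes and enzyme regulators, from glucose uptake to lactate release and including the enzymes that run the pathway backwards. A member was measured where the array carried a probe set annotated to that gene alone, and where a gene had several, the brightest was used. This left 31 of the 35 members, out of 19938 genes measured. Gpi1, Pfkfb1, Gapdh and Eno1 lacked a probe set annotated to them alone and were not analysed as members.

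The 2 groups were Tmod3-/- embryos, whose livers the submitters recorded as small and whose phenotype included anemia, and Tmod3+/+ embryos recorded as normal, with 3 livers of separate embryos in each. All embryos were C57BL/6J at E14.5, when the liver makes most of the red cells of the fetus. Total RNA of whole liver was hybridised to Affymetrix MoGene 1.0 ST arrays, 1 per embryo, so the number of arrays limits the precision. The labels do not say which part of Tmod3 is deleted.

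Glycolysis splits glucose into pyruvate in a chain of cytosolic steps and yields ATP without oxygen, and lactate dehydrogenase turns pyruvate into lactate. Most steps can be run by several isoenzymes, products of separate genes that differ in tissue and regulation. Erythroid cells take up glucose through GLUT1 and, once mature, live on glycolysis alone, while hepatocytes use liver isoforms and, around birth, begin to make glucose by gluconeogenesis. Several glycolytic genes are textbook targets of the hypoxia-inducible factors, which bind a core of ACGTG or GCGTG.

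Values are the deposited RMA values, read as log2 from their range, since no source states the log base. A difference is knockout minus wild type on that scale. Array medians lay between 1.36 and 1.43, and members near or below them are close to the floor of the measurement. Levels of different probe sets are not set against each other. Tmod3 itself read 1.32, 2.36 and 1.30 in knockout livers, against 4.49, 4.78 and 4.90 in wild type livers, so each array matched its label.

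The promoter windows of 4 members with the smallest p and of Aldoc, the isoform set against Aldoa below, are printed here. They are RefSeq windows of GRCm38.p6, each running from 250 bases before to 50 bases after an annotated start of transcription, given in the direction of the gene. Capitals mark ACGTG and GCGTG on either strand, where CACGT and CACGC are the same letters read from the other strand. For Aldoa, Ldha and Aldoc 1 of several windows is shown. Another Aldoa window held neither ACGTG nor GCGTG, and the other windows of Ldha and Aldoc held GCGTG but no ACGTG.
Pgk1 chrX:106186850-106187149 (+): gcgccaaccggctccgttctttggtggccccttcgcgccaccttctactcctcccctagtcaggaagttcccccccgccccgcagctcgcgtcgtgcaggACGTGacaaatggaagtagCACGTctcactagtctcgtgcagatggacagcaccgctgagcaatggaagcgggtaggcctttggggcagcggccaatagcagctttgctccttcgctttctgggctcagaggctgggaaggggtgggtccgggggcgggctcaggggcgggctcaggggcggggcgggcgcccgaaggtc
Aldoa chr7:126799205-126799504 (-): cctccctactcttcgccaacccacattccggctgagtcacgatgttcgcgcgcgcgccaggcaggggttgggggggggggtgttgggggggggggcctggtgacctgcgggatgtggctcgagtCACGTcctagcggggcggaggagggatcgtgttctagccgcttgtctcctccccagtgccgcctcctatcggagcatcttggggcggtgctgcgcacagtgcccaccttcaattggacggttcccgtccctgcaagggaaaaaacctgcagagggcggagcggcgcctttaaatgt
Ldha chr7:46845554-46845853 (+): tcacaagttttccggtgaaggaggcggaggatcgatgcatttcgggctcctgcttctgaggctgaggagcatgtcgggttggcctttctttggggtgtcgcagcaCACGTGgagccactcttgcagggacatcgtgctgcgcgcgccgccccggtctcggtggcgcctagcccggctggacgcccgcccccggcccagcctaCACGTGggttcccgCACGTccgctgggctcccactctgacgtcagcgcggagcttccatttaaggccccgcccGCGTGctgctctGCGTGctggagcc
Pfkp chr13:6648722-6649021 (-): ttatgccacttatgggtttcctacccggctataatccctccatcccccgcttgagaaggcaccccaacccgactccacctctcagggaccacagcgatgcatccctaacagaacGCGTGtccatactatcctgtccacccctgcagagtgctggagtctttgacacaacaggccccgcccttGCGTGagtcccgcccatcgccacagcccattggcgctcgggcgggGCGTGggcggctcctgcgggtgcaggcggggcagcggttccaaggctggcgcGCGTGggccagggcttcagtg
Aldoc chr11:78322823-78323122 (+): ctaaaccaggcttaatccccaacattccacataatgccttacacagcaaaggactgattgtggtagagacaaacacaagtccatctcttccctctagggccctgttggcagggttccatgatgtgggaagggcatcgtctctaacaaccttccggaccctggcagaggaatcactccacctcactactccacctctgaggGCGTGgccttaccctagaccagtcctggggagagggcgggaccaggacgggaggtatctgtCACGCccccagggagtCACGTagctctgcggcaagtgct

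Across the measured members with a window (30 of 31), 16 genes (53.3%) held ACGTG in at least 1 window, against 21.8% of 27025 genes in the table. GCGTG was held by 15 of the 30 members, a share of 50%, against 35.2% of all genes, and 22 (73.3%) held one or the other, against 46.7%. The palindrome CACGTG, which overlaps ACGTG on both strands, was held by 6 members (20%) against 8.09% of all genes. A gene with more windows has more chances of a match. Counted by window, ACGTG was held by 45.5% of 44 member windows, against 19.6% of all 32851. For GCGTG these shares were 43.2% and 32.4%. None of the shares was matched for base composition. In the printed windows Ldha held CACGTG 2 times, Pgk1 had ACGTG once on each strand, and Pfkp had GCGTG at 4 places and no ACGTG. The other 8 members, Slc2a2, Tpi1, Pgam2, Eno2, Pklr, Fbp1, Pck1 and G6pc, held neither ACGTG nor GCGTG in any window. A match of letters is no binding site, and factor binding was not measured here.

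No member passed the test over all genes. With limma and Benjamini-Hochberg adjustment at 0.05, 0 of the 31 members were called in either direction, where 0.015% of the 19938 genes were called, and the smallest adjusted p of a member was 0.144. At an unadjusted p under 0.05, 4 members were higher in knockout liver, namely Pgk1, Aldoa, Pfkp and Ldha, which is 12.9% of the members against 2.59% of all genes. In the lower direction 0 members had an unadjusted p under 0.05, against 6.44% of all genes, and over both directions 9.03% of all genes had such a p. In 5 members (16.1%) all 3 knockout arrays lay above all 3 wild type arrays, against 6.14% of all genes, and in 1 member they all lay below, against 7.1%. The members and their order were chosen with earlier results of these arrays known, so these shares describe the set and do not test it.

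The median difference of the 31 members was 0.07, and that of all genes was 0.01. It depended on the level. Over the 8 members with a mean value of at least 3 the median was 0.46 and 5 were positive, while over the 2545 genes of that level the median was -0.25 and 19.4% were positive. Of the 8 members, Hk1 and Pkm reached that level only on a probe set that lists no RefSeq transcript. Aldoa reached it only through its knockout arrays, with a mean of 4.22 there and 2.91 in wild type livers. The cut is thus not independent of the difference, and the median by level is a description only. Of the 31 members 22 had a positive difference (71.0%), against 51.6% of all genes.

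**Figure D1:**
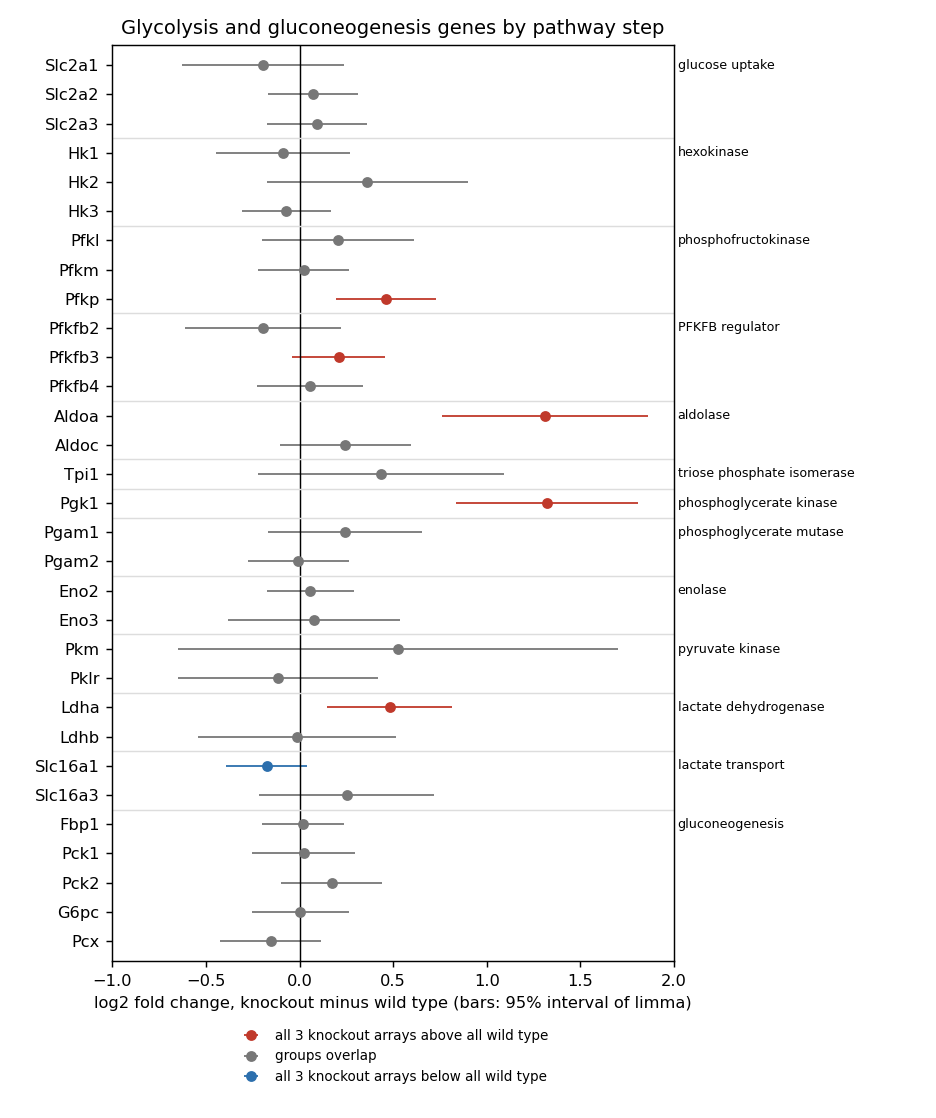
Log2 difference of knockout minus wild type liver for the 31 measured members, ordered by pathway step, with bars for limma's 95% interval (3 arrays a group). Aldoa and Pgk1 lie apart from the other members, at 1.31 and 1.32, and the gluconeogenesis genes lie near 0.

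Among the glucose transporters the groups overlapped at each of the 3 genes. Slc2a1, which encodes GLUT1 of red cells, read 3.44, 3.92 and 3.31 in knockout livers, against 3.56, 3.65 and 4.03 in wild type livers. Knockout replicates 1 and 3 were the lowest of the 6 arrays, and knockout replicate 2 lay above wild type replicates 1 and 2. The difference was -0.19, with a 95% interval from -0.63 to 0.24 (limma adjusted p = 0.827). When 1 array was left out it ran from -0.37 (knockout replicate 2 omitted) to -0.051 (wild type replicate 3 omitted). Slc2a2, which encodes GLUT2 of hepatocytes, read 2.36, 2.12 and 2.24 in knockout livers and 2.11, 2.16 and 2.23 in wild type livers, with a 95% interval from -0.17 to 0.31. Slc2a3, which encodes the high-affinity transporter GLUT3, lay near the array medians at 1.26, 1.49 and 1.32 in knockout livers and 1.19, 1.41 and 1.19 in wild type livers.

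The hexokinases, which trap glucose in the cell as glucose 6-phosphate, showed 1 high array. Hk2 read 1.48, 2.41 and 1.59 in knockout livers, against 1.59, 1.29 and 1.51 in wild type livers. Knockout replicate 2 alone stood above the rest, and the difference of 0.36 was 0.070 without it and 0.54 at the other end of the leave-one-out range. Hk3, the hexokinase of myeloid cells, read 1.19, 1.03 and 1.19 in knockout livers and 1.30, 1.16 and 1.17 in wild type livers, below the median of each array. Hk1, the hexokinase of red cells and brain, had 2 probe sets on very different levels. The brighter one, which lists a single cDNA and no RefSeq transcript, read 8.84, 8.85 and 8.99 in knockout livers and 9.04, 8.65 and 9.24 in wild type livers. The one that lists the RefSeq transcripts read 2.31, 2.04 and 1.82 in knockout livers and 2.12, 2.26 and 2.69 in wild type livers. The differences were -0.09 and -0.30 (limma adjusted p = 0.918 and 0.693), so the probe sets had the same sign and neither passed.

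At phosphofructokinase, the committed step of glycolysis, only the platelet-type subunit had groups that did not overlap. Pfkp read 1.46, 1.49 and 1.76 in knockout livers, against 1.17, 1.10 and 1.05 in wild type livers. The groups did not overlap, and all 3 wild type arrays lay below their array medians while the knockout arrays lay above theirs. The difference was 0.46 with a standard error of 0.12 (limma unadjusted p = 0.0038, adjusted p = 0.299), and leaving out 1 array gave 0.37 to 0.52. Pfkl, the liver-type subunit, read 1.50, 2.11 and 1.63 in knockout livers and 1.32, 1.61 and 1.69 in wild type livers. Its difference of 0.21 ran from 0.025 without knockout replicate 2, the highest array, to 0.33 when another array was left out. Pfkm, the muscle-type subunit, read 2.12, 2.07 and 1.96 in knockout livers and 2.15, 1.94 and 1.99 in wild type livers, a difference of 0.02 with a 95% interval from -0.22 to 0.27.

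The bifunctional PFKFB enzymes make and break fructose 2,6-bisphosphate, the strongest activator of phosphofructokinase. Pfkfb3, the inducible form with high kinase activity, read 1.64, 1.78 and 1.92 in knockout livers, against 1.52, 1.59 and 1.61 in wild type livers. The groups did not overlap, but the lowest knockout array and the highest wild type array were 1.64 and 1.61. The difference was 0.21 (SE 0.11; adjusted p = 0.641 by limma). Pfkfb2 read 1.28, 1.78 and 1.27 in knockout livers and 1.40, 1.62 and 1.90 in wild type livers, with a difference of -0.19, which ran from -0.36 (knockout replicate 2 omitted) to -0.064 (wild type replicate 3 omitted). Pfkfb4 read 1.20, 1.20 and 1.50 in knockout livers and 1.33, 1.12 and 1.27 in wild type livers, near the array medians.

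Aldolase splits fructose 1,6-bisphosphate, and its ubiquitous form showed the second largest difference of the set. Aldoa read 3.78, 4.48 and 4.41 in knockout livers, against 2.46, 3.08 and 3.19 in wild type livers. Each knockout array lay above each wild type array, from 3.78 in knockout replicate 1 upwards, against at most 3.19 in wild type replicate 3. The means were 4.22 ± 0.38 and 2.91 ± 0.39 (SD, n = 3 each), and the difference was 1.31 with a standard error of 0.24, a 2.48-fold higher value (limma unadjusted p = 0.000558, adjusted p = 0.188). Over the leave-one-out fits the difference ran from 1.09 to 1.53. Aldoc, the brain-type aldolase, read 1.21, 1.62 and 1.37 in knockout livers and 0.96, 1.12 and 1.38 in wild type livers. Its groups overlapped through wild type replicate 3, and the difference of 0.25 ran from 0.13 (knockout replicate 2 omitted) to 0.36 (wild type replicate 3 omitted).

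Tpi1, which interconverts the triose phosphates, read 3.73, 4.69 and 4.04 in knockout livers, against 3.21, 3.84 and 4.10 in wild type livers. The groups overlapped, with wild type replicate 3 above knockout replicates 1 and 3. The difference was 0.43 with a 95% interval from -0.22 to 1.09 (limma adjusted p = 0.735), and leaving out 1 array gave 0.16, without knockout replicate 2, to 0.65.

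Pgk1, which encodes the kinase of the first ATP-producing step, showed the largest difference. It read 7.42, 7.94 and 7.74 in knockout livers, against 6.12, 6.19 and 6.83 in wild type livers. The groups did not overlap, and wild type replicate 3 was the nearest to the knockout arrays. The means were 7.70 ± 0.26 and 6.38 ± 0.39 (SD, n = 3 each). The difference was 1.32 with a standard error of 0.21, a 2.50-fold higher value (limma unadjusted p = 0.000224, adjusted p = 0.144), and leaving out 1 array gave 1.19 to 1.55. Pgk1 had 3 probe sets, of which 2 held identical values on every array and the other gave the same difference of 1.32 with 7.41, 7.88 and 7.67 in knockout livers and 6.10, 6.15 and 6.74 in wild type livers. Which copies of the gene each of them measures is not given in the annotation used here.

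**Figure D2:**
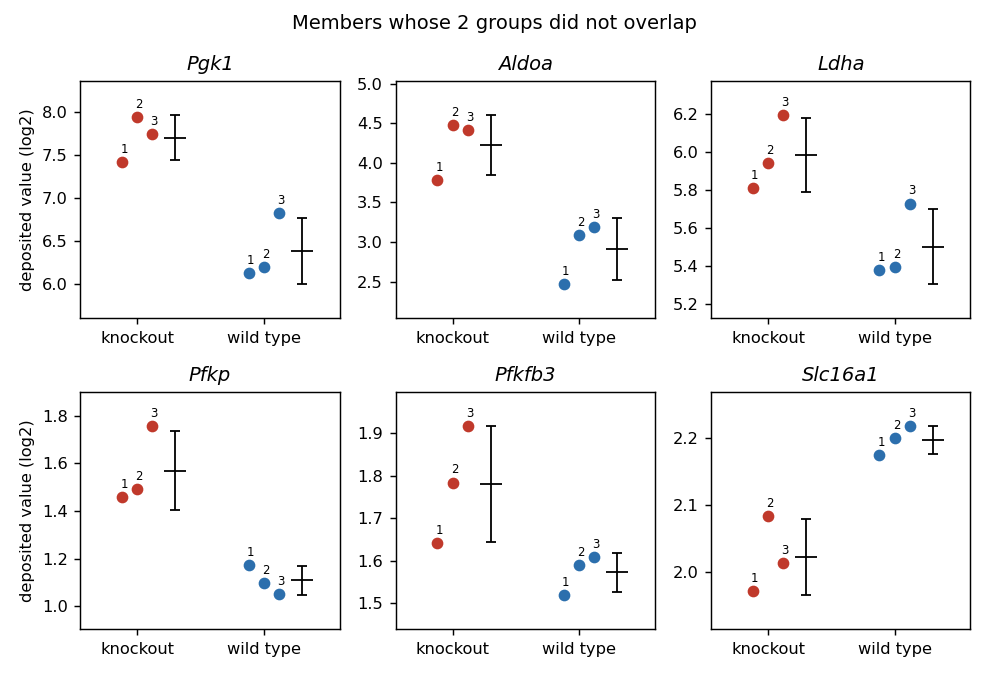
Deposited log2 values of the 6 members whose groups did not overlap, with 1 point per array numbered by replicate and the mean and SD of 3 arrays beside them. Each vertical axis has its own range; the gap between groups is widest for Pgk1 and Aldoa and narrow for Pfkfb3, where 1.64 in knockout replicate 1 lies just above 1.61 in wild type replicate 3.

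The mutases and enolases showed small differences. Pgam1, the widely expressed mutase subunit, read 1.71, 2.23 and 1.87 in knockout livers and 1.40, 1.74 and 1.93 in wild type livers, with a difference of 0.24 that ran from 0.095, without knockout replicate 2, to 0.36 when 1 array was left out. Pgam2, the muscle subunit, read 1.53, 1.35 and 1.55 in knockout livers and 1.62, 1.32 and 1.52 in wild type livers. The groups overlapped for both genes. Of the enolases, Eno2, the neuronal form, lay below every array median at 1.29, 1.14 and 1.23 in knockout livers and 1.25, 1.15 and 1.09 in wild type livers. Eno3, the muscle form, read 1.35, 1.96 and 1.26 in knockout livers and 1.68, 1.25 and 1.41 in wild type livers, with knockout replicate 2 the highest.

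Pyruvate kinase ends the pathway with its second ATP-producing step. Pkm, which encodes the M forms, read 2.21, 4.50 and 4.11 in knockout livers, against 3.10, 2.88 and 3.26 in wild type livers on its brightest probe set. Knockout replicate 1 was the lowest of the 6 arrays there and the other 2 knockout arrays the highest, so the SD was 1.23 in knockout livers and 0.19 in wild type livers. The difference of 0.53 (limma adjusted p = 0.827) was 1.23 without knockout replicate 1 and 0.082 without knockout replicate 2. That probe set lists no RefSeq transcript. The probe set that does read 1.69, 2.33 and 2.17 in knockout livers and 1.27, 1.83 and 1.81 in wild type livers. There the spread was smaller, the difference was 0.43 with a standard error of 0.21, and it did not pass either (limma unadjusted p = 0.0744, adjusted p = 0.595). Pklr, which encodes the liver and red cell forms, read 3.27, 3.51 and 2.97 in knockout livers and 2.85, 3.58 and 3.67 in wild type livers. Its difference of -0.11 had a 95% interval from -0.65 to 0.42.

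**Figure D3:**
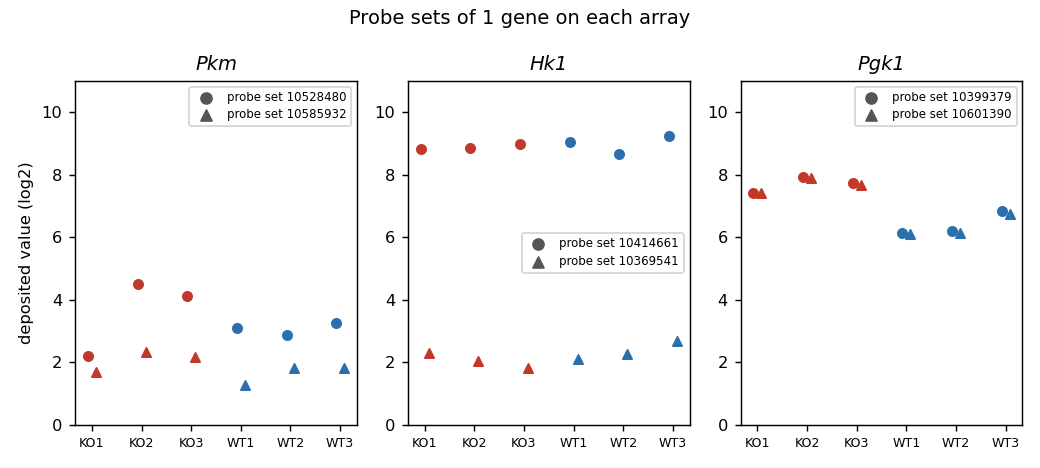
Deposited log2 values of the different probe sets of Pkm, Hk1 and Pgk1 on each array (KO knockout in red, WT wild type in blue, number the replicate; circles the brightest probe set, triangles the other one). The brightest Pkm probe set spreads from 2.21 to 4.50 within the knockout arrays, the Hk1 probe sets lie far apart, and the Pgk1 probe sets nearly coincide.

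Lactate dehydrogenase regenerates the NAD+ that glycolysis needs. Ldha, whose subunit favours lactate formation, read 5.81, 5.94 and 6.20 in knockout livers, against 5.38, 5.40 and 5.73 in wild type livers. The groups did not overlap, and the lowest knockout array was 5.81 beside 5.73 in wild type replicate 3. The difference was 0.48 with a standard error of 0.14, a 1.40-fold higher value (limma unadjusted p = 0.0101, adjusted p = 0.379), with 0.37 to 0.59 when 1 array was left out. Ldhb, the heart-type subunit, read 1.99, 1.22 and 1.34 in knockout livers and 1.16, 1.68 and 1.75 in wild type livers, a difference of -0.01.

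The lactate carriers went apart in sign. Slc16a1, which encodes MCT1, read 1.97, 2.08 and 2.01 in knockout livers, against 2.18, 2.20 and 2.22 in wild type livers. It was the only member with all knockout arrays below all wild type arrays, with a difference of -0.18 (SE 0.09; limma unadjusted p = 0.0974, adjusted p = 0.656). Slc16a3, which encodes MCT4, the carrier of cells that export lactate, read 2.93, 3.40 and 2.54 in knockout livers and 2.56, 2.81 and 2.74 in wild type livers. Its knockout arrays held both the highest and the lowest value, and the difference of 0.25 ran from 0.028, without knockout replicate 2, to 0.46 when 1 array was left out.

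The genes of gluconeogenesis lay at or near the array medians in both groups, where the arrays can show little difference. Fbp1, which encodes fructose-1,6-bisphosphatase, read 1.26, 1.24 and 1.17 in knockout livers and 1.26, 1.19 and 1.16 in wild type livers. G6pc, whose product releases free glucose, read 1.24, 1.10 and 1.02 in knockout livers and 1.22, 1.14 and 0.98 in wild type livers. Both lay below the median of each array.

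Pck1, the cytosolic phosphoenolpyruvate carboxykinase, read 1.56, 1.23 and 1.53 in knockout livers and 1.46, 1.46 and 1.35 in wild type livers. Pck2, its mitochondrial counterpart, read 1.23, 1.46 and 1.40 in knockout livers and 1.22, 1.04 and 1.31 in wild type livers. Pcx, which encodes pyruvate carboxylase, read 1.29, 1.29 and 1.25 in knockout livers and 1.63, 1.39 and 1.27 in wild type livers. The 5 genes of this step had differences from -0.15 for Pcx to 0.17 for Pck2, and their limma adjusted p lay between 0.742 and 0.995. Pcx was -0.054 without wild type replicate 1, and Pck2 was 0.097 without wild type replicate 2. Over the whole set 10 of the 31 members had a mean below the mean of the array medians, and 4 (Hk3, Eno2, Fbp1 and G6pc) lay below the median of every array.

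Isoenzymes of 1 step were then set against each other by taking, on each array, the log2 value of one minus that of the other and comparing these differences between the groups. Of 24 pairs, 19 could be measured, in 11 steps. In 2 pairs (10.5%) the groups did not overlap, where 14.4% of all possible pairs of the 19938 genes did not overlap, so the count is not above that of genes at large. A two-sided exact permutation test of 3 against 3 cannot give a p below 0.1, and no pair passed after adjustment over the 19 pairs.

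One of the 2 was aldolase. Aldoa minus Aldoc was 2.57, 2.85 and 3.04 on knockout arrays, against 1.51, 1.96 and 1.81 on wild type arrays. The shift between groups was 1.07 with a standard error of 0.19 (exact permutation p = 0.1, adjusted p = 0.518), and the mean of Aldoc lay below that of the array medians. The other pair was Pfkm minus Pfkp, with 0.66, 0.58 and 0.20 on knockout arrays and 0.97, 0.84 and 0.94 on wild type arrays. For that pair the shift was -0.44 with a standard error of 0.15 (exact permutation p = 0.1, adjusted p = 0.518), with Pfkp near the floor in wild type livers. Pfkl minus Pfkp overlapped, with 0.04, 0.62 and -0.13 on knockout arrays and 0.15, 0.51 and 0.63 on wild type arrays, a shift of -0.25 (SE 0.27; exact permutation p = 0.3), so Pfkp did not separate from Pfkl.

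Ldha minus Ldhb was 3.83, 4.72 and 4.85 on knockout arrays and 4.22, 3.71 and 3.98 on wild type arrays, a shift of 0.49 with a standard error of 0.35 (exact permutation p = 0.3). Knockout replicate 1 fell within the wild type range where its Ldhb value was the highest of the 6 arrays. Pkm minus Pklr gave -1.07, 0.98 and 1.14 on knockout arrays and 0.25, -0.71 and -0.41 on wild type arrays, a shift of 0.64 with a standard error of 0.76 (exact permutation p = 0.4). Slc16a1 minus Slc16a3 shifted by -0.43 with a standard error of 0.24, and Hk1 minus Hk2 by -0.45 with a standard error of 0.33, both with exact permutation p = 0.2. Pkm and Hk1 enter these pairs on their brightest probe sets, which list no RefSeq transcript. The knockout SD of Pkm was 1.23 there and 0.34 on the probe set that lists RefSeq transcripts. The transporter pairs Slc2a1 minus Slc2a2 and Slc2a1 minus Slc2a3 shifted by -0.27 and -0.29 with standard errors of 0.26 and 0.22. In 17 pairs the groups overlapped, which does not show that the isoenzymes changed alike.

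**Figure D4:**
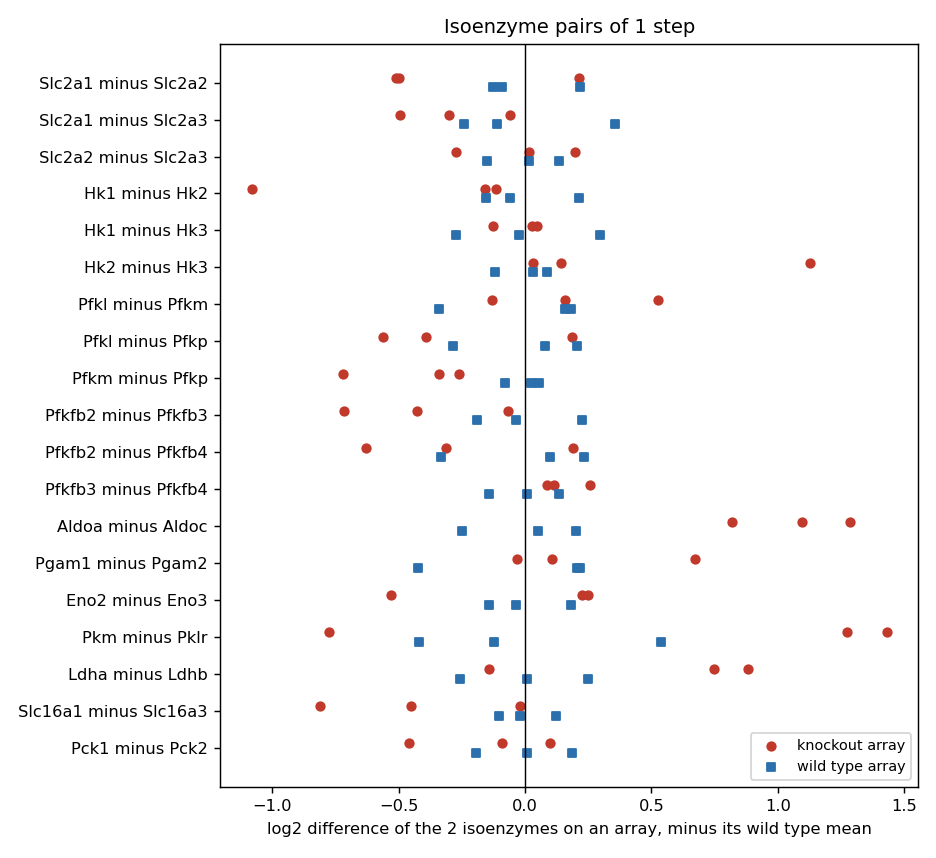
Difference in log2 value between 2 isoenzymes of 1 step on each array, after subtracting the pair's wild type mean (red circles knockout, blue squares wild type, 3 arrays each). Only Aldoa minus Aldoc and Pfkm minus Pfkp have no overlap between the groups, with shifts of 1.07 and -0.44.

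The arrays did not contribute evenly. Knockout replicate 2 held the highest of the 6 values in 12 of the 31 members (38.7%), against 14.2% of all genes, while knockout replicates 1 and 3 did so in 5 and 4 members. Wild type replicates 1 and 3 held the highest value in 5 members each and wild type replicate 2 in 0. The 12 were Slc2a3, Hk2, Pfkl, Aldoa, Aldoc, Tpi1, Pgk1, Pgam1, Eno3, Pkm, Slc16a3 and Pck2. Without knockout replicate 2 the differences of Pgk1 and Aldoa were 1.20 and 1.19, and that of Pfkp was 0.50. Of the others listed, Eno3 was then -0.14, and Slc2a3, Hk2, Pfkl, Aldoc, Tpi1, Pgam1, Pkm, Slc16a3 and Pck2 lay between 0.023 and 0.16. Among the 12, Slc2a3, Pfkl, Aldoa, Aldoc, Tpi1, Pgk1 and Pgam1 had their lowest value on wild type replicate 1. Without that array Pgk1 and Aldoa were 1.19 and 1.09, and Slc2a3, Pfkl, Aldoc, Tpi1 and Pgam1 lay between 0.055 and 0.18. The genes of each list were picked by the array then left out, so a smaller or lower difference was fixed by the choice.

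**Figure D5:**
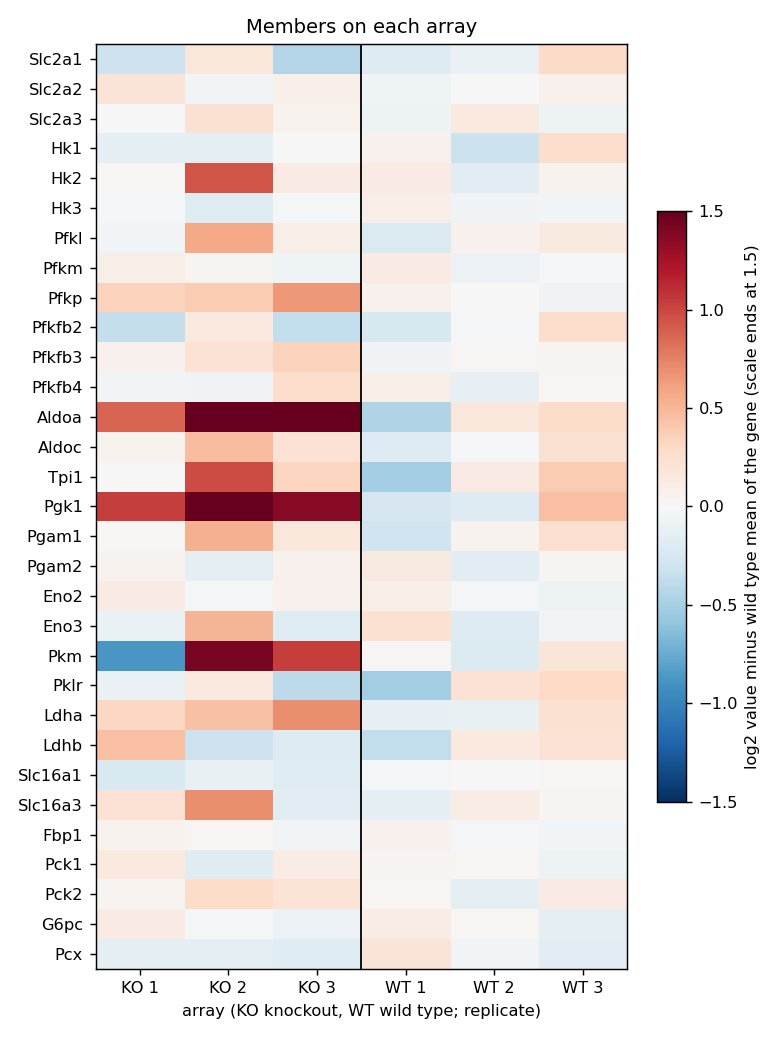
Log2 value of each of the 31 members on each array (KO knockout, WT wild type), minus the gene's wild type mean; red is higher, blue is lower, and the colour scale ends at 1.5 in each direction. Aldoa and Pgk1 are red on all 3 knockout arrays, while Hk2, Pfkl and Eno3 are red mainly on knockout replicate 2.

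Other genes of glucose use were taken from lists written with earlier results known, and 0 of them passed over all genes (limma). Their counts at an unadjusted p under 0.05 stand beside 2.59% of all genes higher and 6.44% lower. Of 23 measured genes of the same steps, 1 was higher and 0 lower at that level, a count near the share of all genes. The higher one was Slc2a12, a glucose transporter, which read 1.19, 1.38 and 1.99 in knockout livers and 1.01, 1.06 and 1.05 in wild type livers. Bpgm, the mutase that makes 2,3-bisphosphoglycerate in red cells and a member of that list named after its value was seen, averaged 3.48 ± 0.44 in knockout livers and 3.56 ± 0.40 in wild type livers (SD, n = 3 each).

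Of 13 genes that carry pyruvate into mitochondria and oxidise it, 0 were higher and 1 was lower at that level, again near the share of all genes, and their median difference was -0.18. The lower one was Mpc1, a subunit of the mitochondrial pyruvate carrier, which read 3.75, 3.32 and 3.78 in knockout livers, against 4.17, 4.59 and 4.88 in wild type livers. Its groups did not overlap, and the difference of -0.93 had an SE of 0.20 (adjusted p = 0.229 by limma). Pdk1, which encodes a kinase that shuts pyruvate dehydrogenase, averaged 2.83 ± 0.16 in knockout livers and 3.01 ± 0.17 in wild type livers (SD, n = 3 each).

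Of 9 genes of the pentose phosphate pathway, which makes NADPH from glucose 6-phosphate, 0 had an unadjusted p under 0.05 in either direction, and the median difference was 0.01. Of 17 glycogen genes, 1 was higher and 2 were lower at an unadjusted p under 0.05, where 2.59% and 6.44% of all genes were. Ugp2, which makes UDP-glucose, read 4.26, 4.10 and 3.86 in knockout livers and 4.44, 4.58 and 4.65 in wild type livers, a difference of -0.48. Gys2, the liver glycogen synthase, read 2.21, 2.13 and 2.16 in knockout livers and 2.28, 2.66 and 2.90 in wild type livers, a difference of -0.44. Ppp1r3b, a glycogen-targeting subunit of protein phosphatase 1, was the higher one, with a difference of 0.24. The groups did not overlap for any of these 3 genes, as in 6.14% of all genes above and 7.1% below.

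Markers of the cell types of fetal liver were counted in the same way. At an unadjusted p under 0.05, 6.44% of all genes were lower and 2.59% higher, and of the 2545 genes with a mean of at least 3, 19.4% had a positive difference. No share at such a p is given for those 2545 genes, so the marker counts have no share matched for level. The same upper percentile of each array was 3.67, 3.82 and 3.68 on knockout arrays, against 3.68, 4.07 and 4.13 on wild type arrays. Whether the marker differences exceed those of other genes of their level was not tested. All 13 measured erythroid markers were lower in knockout liver, 8 of them at an unadjusted p under 0.05, and the sum of their log2 values was 59.8 to 63.4 in knockout livers and 65.3 to 70.4 in wild type livers. Of 17 hepatoblast and hepatocyte markers 13 were lower, 6 at an unadjusted p under 0.05, with sums of 85.3 to 101 in knockout livers and 98.3 to 106 in wild type livers, a share of lower markers close to that of genes with a mean of at least 3. Knockout replicate 3 stood apart there: the mean marker value was 5.79, 5.94 and 5.02 on knockout arrays, against 5.78, 6.08 and 6.21 on wild type arrays. Of 13 macrophage markers 10 were lower, 3 at that level, with sums of 22.7 to 29.3 in knockout livers and 28.0 to 31.9 in wild type livers. Knockout replicate 3 was again the low one, with mean values of 2.26, 2.19 and 1.74 on knockout arrays, against 2.15, 2.26 and 2.45 on wild type arrays. Of 11 endothelial markers 7 were higher, 1 at that level, with sums of 19.0 to 20.9 in knockout livers and 18.9 to 19.2 in wild type livers. Of 11 neutrophil markers 6 were lower, 0 at that level, with sums of 23.0 to 28.0 in knockout livers and 24.1 to 26.5 in wild type livers. Of 7 megakaryocyte markers 4 were lower, 1 at that level, with sums of 21.2 to 23.4 in knockout livers and 23.1 to 24.1 in wild type livers. No marker passed over all genes.

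Alas2 and Alb, which define erythroid cells and hepatocytes, averaged 4.97 ± 0.26 and 9.43 ± 0.61 in knockout livers, against 5.60 ± 0.17 and 10.04 ± 0.12 in wild type livers (SD, n = 3 each), so both cell types were present in both groups. Alb is 1 of the 13 lower markers of its list, in which 4 were higher, so its means are given for presence only. None of the erythroid or hepatocyte markers had a mean below that of the array medians, against 5 of the endothelial, 4 of the neutrophil, 3 of the macrophage and 1 of the megakaryocyte markers. The part of a changed cell make-up in the values of the glycolytic genes was not tested, and in whole liver fewer cells of a type and less RNA per cell cannot be told apart.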

How the data were processed

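Expression in 6 fetal livers was measured on Affymetrix MoGene 1.0 ST arrays, from Trizol-extracted total RNA labelled with biotin, per the labels' protocols. The authors' deposited log2 values come from RMA, per the submitters' processing notes, with 1 value for each probe set on each array. Their log base is not stated, and log2 was inferred because 2 raised to the highest value of an array gives 3457 to 6451 and e raised to it gives 127417 to 313456, above what a scanner records. Other steps are not given in the sources used here. Of 28853 probe sets, 21789 had 1 gene symbol in the platform annotation, 1621 several and 5443 none. Of the named ones, 21698 matched RefSeq genes of GRCm38.p6 by identifier, which changed 0 symbols.

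The test was limma's (version 3.58.1, R 4.3.3; lmFit, eBayes, no covariates, two-sided, Benjamini-Hochberg over 19938 genes, no filter); 95% intervals are the moderated ones. The fit was tested on simulated data. Figures and summaries used Python 3.11.15. Members, lists and tests were chosen with earlier results of these data known. Values of each array are given for all members; of other lists, up to 4 genes by smallest p could be named; Bpgm and Alb are exceptions, Alb as a defining hepatocyte marker. Promoter windows are RefSeq's; Slc2a3 is named only. Alternatives were a replicate block, omission of each array, quantile normalization, 2 centrings, averaged probe sets, a level filter, robust fitting with a trend, array weights, another threshold and, chosen after seeing the data, the RefSeq-listing probe sets of Hk1 and Pkm. Columns of unmapped samples: 0. No 2 arrays were identical.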

Additional observations from a re-analysis of the deposited data

How the results depend on the processing

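The arrays number 3 a group, and probe sets near the array medians have little signal over background, which limits what can be detected. Of the 31 members 10 had a mean below that of the array medians, and only 12 had a mean of at least 2. The count of all genes called, 3 as reported, was 0 with the replicate block, 6 after renewed quantile normalization, 11 with array weights, 111 after centring on genes with a mean of at least 3, and 0 to 95 when 1 array was left out (0 without wild type replicate 2, 95 without wild type replicate 1). Whether replicate numbers pair the samples cannot be settled with 3 arrays a group. Deviations of same-numbered arrays correlated at 0.11, 0.06 and -0.11, and those of differently numbered arrays at -0.19 to 0.19. The block left 0 members called.

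The count of members called, 0, became 2 (Aldoa and Pgk1) after centring on genes with a mean of at least 3. That centring moved the median of all genes by 0.26, to 0.27, and there limma gave every gene the same variance; 78 of its 111 calls were higher. Under it 13 members had an unadjusted p under 0.05 instead of 4, all of them higher. At that level 13.2% of all genes were higher there, instead of 2.59%. Of the members 11 lay with all knockout arrays above and 0 with all below, and no share of all genes is given for these counts. The members' median was 0.34, beside 0.27 for all genes, and all 31 were positive. Aldoa was 1.57 and Pgk1 1.59. In the other settings the adjusted p of Aldoa ran from 0.0513 (quantile normalization) to 0.670, and that of Pgk1 from 0.0664 (level filter) to 0.647, and their sign never turned.

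Members with all knockout arrays below, 1 as reported, numbered 3 after quantile normalization, 3 after centring on all genes and 1 to 3 when 1 array was left out. Those with all knockout arrays above numbered 3 of 12 tested with a level filter of 2 and 5 to 7 when 1 array was left out. Isoform pairs without overlap numbered 4 after quantile normalization, 0 with the filter, where fewer pairs are tested, and 2 to 7 when 1 array was left out. No share of all genes or pairs is given for these settings. With 1 array left out, groups separate more easily, so the counts are not comparable with those of all 6 arrays.

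No sign held throughout for 15 members, none over 0.20 in size as reported; 16 kept theirs. With quantile normalization Slc2a1 was 0.036, Pklr 0.10, Ldhb 0.0086, Fbp1 -0.029, Pck1 -0.0065 and G6pc -0.043. Centred on all genes, Pfkm was -0.0082, Fbp1 -0.012, Pck1 -0.0081 and G6pc -0.025. Centred on genes of at least 3, Slc2a1 was 0.070, Hk1 0.17, Hk3 0.19, Pfkfb2 0.068, Pgam2 0.26, Pklr 0.15, Ldhb 0.25, Slc16a1 0.087 and Pcx 0.11. With array weights Hk1 was 0.011 and Pgam2 0.059. Leaving out 1 array gave -0.022 to 0.082 for Pfkm, -0.0050 to 0.048 for Fbp1, -0.038 to 0.13 for Pck1, -0.062 to 0.059 for G6pc, -0.089 to 0.059 for Pgam2, -0.14 to 0.21 for Eno3, -0.25 to 0.13 for Ldhb, -0.046 to 0.11 for Pfkfb4, -0.37 to 0.037 for Pklr and -0.25 to 0.041 for Hk1. The cause was not tested.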

Other observations

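Gapdh, the enzyme between the triose phosphates and phosphoglycerate kinase, is covered only by probe sets whose annotation joins it with other symbols, and none of these can be assigned to it alone. There are 25 such probe sets, with 20 distinct sets of values. All 25 had a positive difference of knockout minus wild type, from 0.097 to 0.34 with a median of 0.18, and 0 had an unadjusted p under 0.05 and 0 an adjusted p under it (limma over all 28853 probe sets). In none of them did the groups separate. A positive difference was seen in 51.6% of the 19938 genes, and in 19.4% of those with a mean of at least 3. The 25 probe sets share the symbol Gapdh and some hold identical values, so they are not separate observations.

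Pgam1 had 3 probe sets, 2 of them identical on every array. The distinct one read 1.32, 1.98 and 1.38 in knockout livers and 1.18, 1.44 and 1.58 in wild type livers, a difference of 0.16. The second probe set of Ldhb read 1.59, 0.97 and 1.47 in knockout livers and 1.30, 1.45 and 1.48 in wild type livers, a difference of -0.065.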
